A study of Homo sapiens with 11 samples.

Results

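HMG20B and 8 further subunits of the LSD1-CoREST complex were followed in human cells depleted of Tat-SF1. The 9 genes (HMG20B, KDM1A, RCOR1, RCOR2, RCOR3, PHF21A, HDAC1, HDAC2 and RBBP4) are 9 of the 14555 genes measured, and they were chosen by name, around HMG20B and RBBP4, whose gene values had already been seen to be lower after depletion. All probe sets that carry only 1 of these symbols were taken, 226 of the 1399022 on the array, with KDM1A found under its older symbol AOF2. Of these, 178 entered the gene values, out of 222032 used for all genes.

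The cells were T-REx-293, a line derived from human embryonic kidney HEK293 cells in which a plasmid can be switched on by tetracycline. All of them stably expressed GFP, the green fluorescent protein, from a plasmid and received 2.5 µg/mL tetracycline for 72 h. The knockdown group consisted of Tat-SF1 shRNA B (3 arrays) and Tat-SF1 shRNA A (3 arrays), and the control group of a GFP shRNA (3 arrays) and an empty vector (2 arrays). The labels call the arrays biological replicates of each construct and do not say whether a construct is 1 clone or several.

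LSD1, the product of KDM1A, removes methyl groups from lysine 4 of histone H3, a mark of active promoters and enhancers. It works on nucleosomes when bound to a CoREST scaffold, which also carries the histone deacetylases HDAC1 and HDAC2, and the complex is known for repressing neuronal genes outside neurons through the factor REST. HMG20B, also called BRAF35, is a subunit with an HMG box that binds DNA, and RBBP4 is a histone-binding protein shared with several other chromatin complexes.

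On the array, HTATSF1, the gene of Tat-SF1, averaged 8.21 ± 0.057 in the knockdown arrays (SD, n = 6) and 8.50 ± 0.115 in the control arrays (SD, n = 5) on the log2 scale, with all 6 knockdown arrays below all 5 controls. The median of an array was 7.90 on all 11 arrays, and dim probe sets crowd around it, so differences of genes close to it may appear too small. The correlation between any pair of arrays, over probe sets with an estimate on all of them, lay between 0.941 and 0.962. The 3000 genes with the highest values averaged 9.26 ± 0.045 in the knockdown arrays and 9.32 ± 0.041 in the control arrays (SD, n = 6 and 5). Of 7 listed markers of HEK293 cells, 6 were measured. VIM averaged 10.11 in knockdown and 10.18 in control arrays, INA 9.37 and 9.43, and NEFL 9.11 and 9.23. PAX2, EYA1 and NEFM lay near the array median, NEFM at 7.99 in knockdown and 7.97 in control arrays. Markers of blood, fibroblasts, endothelium and hepatocytes that could be measured, 13 of 22, averaged between 7.92 and 8.13 in the knockdown arrays. Among 5 measured markers of carcinoma lines, KRT8 averaged 9.49 in knockdown and 9.73 in control arrays and EPCAM 8.64 and 8.81. CDH1, KRT5 and ESR1 lay near the array median, at 7.97, 8.05 and 7.93 in the knockdown arrays. The part of these markers in the results was not tested.

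The sequences around the start sites of 8 of the 9 genes, from RefSeq on GRCh38.p14 (250 bases before to 50 bases after the start), were searched for 8 motifs on both strands. Those of HMG20B (chr19:3572694-3572993, plus strand) and RBBP4 (chr1:32650958-32651257, plus strand) are shown because the gene values of these genes did not overlap between knockdown and control arrays, and that of KDM1A (chr1:23019218-23019517, plus strand) because it encodes the enzyme and its gene values overlapped. Capitals mark the SP1 motif GGGCGG, the CRE core TGACG and the CCAAT box CCAAT, each in either orientation.
HMG20B: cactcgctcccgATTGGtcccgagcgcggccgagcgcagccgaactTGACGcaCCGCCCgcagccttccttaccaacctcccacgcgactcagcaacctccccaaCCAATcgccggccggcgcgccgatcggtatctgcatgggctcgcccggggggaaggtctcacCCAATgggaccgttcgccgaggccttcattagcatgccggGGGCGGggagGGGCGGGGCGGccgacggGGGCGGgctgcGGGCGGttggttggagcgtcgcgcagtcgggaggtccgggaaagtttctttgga
RBBP4: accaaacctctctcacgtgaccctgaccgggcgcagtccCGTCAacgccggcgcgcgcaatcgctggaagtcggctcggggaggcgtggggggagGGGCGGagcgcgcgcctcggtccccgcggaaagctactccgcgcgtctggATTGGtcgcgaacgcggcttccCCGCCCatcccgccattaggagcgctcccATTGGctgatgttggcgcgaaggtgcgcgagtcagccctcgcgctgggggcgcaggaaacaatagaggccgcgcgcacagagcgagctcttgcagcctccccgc
KDM1A: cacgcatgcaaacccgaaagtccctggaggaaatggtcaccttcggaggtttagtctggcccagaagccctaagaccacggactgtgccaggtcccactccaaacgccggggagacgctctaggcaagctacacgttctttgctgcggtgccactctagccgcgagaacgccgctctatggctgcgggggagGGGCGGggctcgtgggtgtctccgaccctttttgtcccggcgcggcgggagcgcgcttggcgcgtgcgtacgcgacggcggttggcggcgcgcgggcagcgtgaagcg
The HMG20B window held 6 SP1 motifs, 1 CRE core and 3 CCAAT boxes, with 70.3% G and C. The RBBP4 window held 2 SP1 motifs, 1 CRE core and 2 CCAAT boxes, also with 70.3% G and C, and the KDM1A window held 1 SP1 motif with 66.7% G and C. Of 35116 windows of the same length, 45.0% held the SP1 motif, 24.6% the CRE core and 34.6% the CCAAT box, and the median window had 58.7% G and C. The other 5 motifs, for ETS factors (CCGGAAG, in 10.3% of all windows), NRF1 (GCATGCGC, 3.1%), ATF4 (TGATGCAA, 0.9%), YY1 (AAGATGGC, 2.9%) and E2F (TTCCCGC, 6.6%), were not in the letters of these 3 windows. Among the other members, whose groups overlapped, RCOR1 and HDAC1 held 6 SP1 motifs and 1 CCAAT box each, RCOR1 also 1 CRE core, RCOR3 5 SP1 motifs, PHF21A 2, and HDAC2 none of the 3. A match is a description of the letters, and no binding was measured here.

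HMG20B, the DNA-binding subunit, had the lowest gene values relative to the controls among the 9 genes. Here a gene value is the median of a gene's probe sets on an array, on the log2 scale. It was 8.22, 8.21 and 8.39 in the shRNA B arrays, 8.43, 8.43 and 8.45 in the shRNA A arrays, 8.73, 8.74 and 8.66 in the GFP shRNA arrays and 8.83 and 8.72 in the empty vector arrays. All 6 knockdown arrays lay below all 5 control arrays, and the 3 shRNA B arrays lay below the 3 shRNA A arrays.

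The HMG20B gene value averaged 8.36 ± 0.110 in the knockdown arrays (SD, n = 6) and 8.74 ± 0.062 in the control arrays (SD, n = 5), a log2 difference of -0.38 (SE 0.055). It was -0.46 (SE 0.057) for shRNA B and -0.30 (SE 0.057) for shRNA A, each against the same 5 control arrays. By size of fall in this gene value, HMG20B ranked 19 of 14555 genes. The median of its 12 probe set differences was smaller, at -0.14, and no rank was taken on it. The gene values chose HMG20B, so they are a description and nothing is read from a test of them. In bulk RNA, less transcript per cell and fewer cells that express it cannot be told apart.

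Since the gene value lies less than 1 log2 unit above the array median, the difference was also expressed as linear signal above each array's median. On that scale HMG20B had 59.0, 57.7 and 95.8 units in the shRNA B arrays, 107, 106 and 112 in the shRNA A arrays, 186, 188 and 166 in the GFP shRNA arrays and 217 and 182 in the empty vector arrays. The knockdown mean was 47.6% of the control mean, with 37.7% for shRNA B and 57.5% for shRNA A. These shares hold only as far as the array median stands for a background, which the labels do not state. They also rest on the log2 difference of -0.38, which was -0.17 with probe sets centred, -0.15 with their mean and -0.14 without the floor.

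RBBP4, the histone-binding subunit, was the other gene of the 9 without overlap between the groups. Its gene value was 9.80, 9.77 and 9.71 in the shRNA B arrays, 9.77, 9.81 and 9.71 in the shRNA A arrays, 10.01, 10.08 and 10.11 in the GFP shRNA arrays and 10.05 and 10.00 in the empty vector arrays. The averages were 9.76 ± 0.044 in the knockdown arrays and 10.05 ± 0.048 in the control arrays (SD, n = 6 and 5), a difference of -0.29 (SE 0.055). Both shRNAs gave a difference of -0.29 from the controls. The median of its 24 probe set differences was smaller, at -0.07. With each probe set centred on its own mean before the median, the groups overlapped. These centred values were -0.10 to 0.03 in the knockdown arrays and -0.04 to 0.10 in the control arrays.

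The catalytic subunit and the deacetylases had lower averages in the knockdown arrays, with overlapping groups. KDM1A was 9.25, 9.67 and 9.55 in the shRNA B arrays, 9.58, 9.46 and 9.62 in the shRNA A arrays, 9.72, 9.70 and 9.73 in the GFP shRNA arrays and 9.75 and 9.40 in the empty vector arrays. It averaged 9.52 ± 0.150 in the knockdown arrays and 9.66 ± 0.147 in the control arrays (SD, n = 6 and 5), a difference of -0.14 (SE 0.083). Without replicate 2 of the empty vector, which lay below every other control array, the difference was -0.20, and without replicate 1 of shRNA B it was -0.08.

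HDAC1 averaged 9.81 ± 0.059 in the knockdown arrays and 9.95 ± 0.110 in the control arrays (SD, n = 6 and 5), a difference of -0.14 (SE 0.064). HDAC2 averaged 8.91 ± 0.144 in the knockdown arrays and 9.03 ± 0.109 in the control arrays, a difference of -0.13 (SE 0.072). For both deacetylases the ranges of the groups overlapped.

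The CoREST scaffolds and PHF21A, which reads unmethylated lysine 4 of histone H3, had the smallest differences. RCOR1, which encodes CoREST itself, averaged 8.52 ± 0.067 in the knockdown arrays and 8.55 ± 0.067 in the control arrays, a difference of -0.03 (SE 0.047). PHF21A averaged 8.28 ± 0.066 in the knockdown arrays and 8.31 ± 0.056 in the control arrays, also a difference of -0.03 (SE 0.042). RCOR3 was 8.20 ± 0.054 in the knockdown arrays and 8.19 ± 0.032 in the control arrays, a difference of 0.01 (SE 0.034).

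RCOR2 averaged 8.09 ± 0.089 in the knockdown arrays and 8.11 ± 0.090 in the control arrays, a difference of -0.02 (SE 0.045), close to the array median. Only 4 of its 18 probe sets reached the floor set at the table's median of 7.91, and none reached a floor 0.5 higher. The scaffold genes and PHF21A stood within the spread of their arrays.

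**Figure D1:**
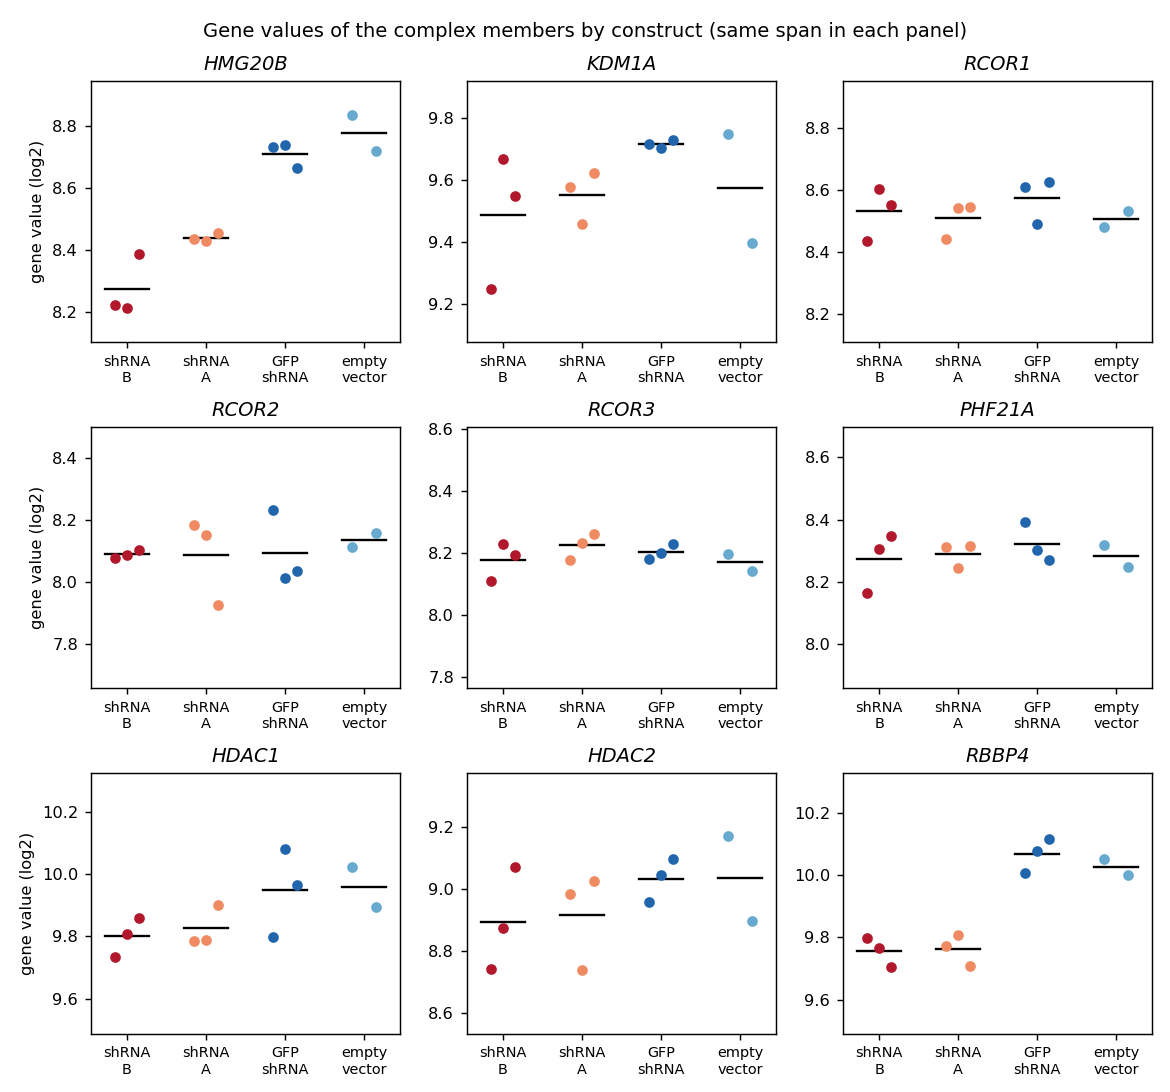
Gene values (log2, vertical axis) of the 9 subunit genes on each array (points) by construct, with the mean of each construct as a line; every panel spans the same number of log2 units. The 6 knockdown arrays lie below the 5 control arrays for HMG20B (8.21 to 8.45 against 8.66 to 8.83) and RBBP4 (9.71 to 9.81 against 10.00 to 10.11), and the groups overlap in the other 7 panels.

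Of the 9 genes, 8 had a lower average in the knockdown arrays, with a median difference of -0.13. Of all genes, 67.1% were lower, with a median of -0.02. The count stayed at 8 after quantile normalization, without the floor and as signal above the array median. It was 7 with the mean of probe sets (66.7% of all genes) and 7 after centring (70.4%). The 3000 genes with the highest values also averaged lower, 9.26 in knockdown and 9.32 in control arrays. Differences of genes near the array median may appear too small, and the 9 were not compared with genes of like brightness. For 2 of the 9, HMG20B and RBBP4, every knockdown array lay below every control, as for 2.03% of all genes. The same 2 had an adjusted p under 0.05 in limma, as had 0.186% of all genes in that direction. It stayed there in 17 of 22 alternatives for HMG20B and in 4 of 24 for RBBP4. Those that ended it for HMG20B include leaving out the floor on dim probe sets (difference -0.14), a term for the suffix of the array names (-0.30) and centring (-0.17). Only knockdown arrays carry the suffix, so its term leaves 2 shRNA A arrays against the controls. Leaving out the suffixed arrays, another of the 22, gives the same difference. HMG20B had an adjusted p under 0.05 in limma for shRNA B alone, as had 0.0412% of all genes. The alternatives kept this shRNA B call in 13 cases and lost it in 8. None of the 9 had such a call for shRNA A alone, as had 0.00687% of all genes. The genes were chosen on this contrast, so these counts are a description and no test of them.

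The shRNAs were compared with each other, since this contrast was not used to choose the genes. HMG20B was lower with shRNA B than with shRNA A by 0.16 (log2 difference -0.16, 95% interval -0.30 to -0.030), and all 3 shRNA B arrays lay below all 3 shRNA A arrays. The adjusted p of limma was 0.998, and an exact two-sided permutation test gave 0.1, the smallest p that 3 arrays against 3 allow. The HMG20B difference between the shRNAs did not pass after adjustment over all genes. It was -0.05 without the floor on dim probe sets. Single HMG20B probe sets went both ways in this contrast, from -0.27 (3817060) to 0.19 (3817047). All 3 shRNA B arrays carry a suffix in their names, while of the shRNA A arrays only replicate 3 does. A difference between the shRNAs can therefore hardly be told apart from one that goes with the suffix.

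For RBBP4 the difference between shRNA B and shRNA A was -0.01 (95% interval -0.17 to 0.16, adjusted p of limma 1.00). For KDM1A it was -0.06 (-0.31 to 0.18) and for the other 6 genes it lay between -0.05 and 0.02, with adjusted p of 0.998 or above in limma. In this contrast limma called none of 14555 genes (0%), with 638 at an unadjusted p under 0.05.

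The control constructs were compared in the same way. GFP shRNA minus empty vector was -0.06 for HMG20B (95% interval -0.22 to 0.09, adjusted p of limma 0.950) and 0.04 for RBBP4 (-0.15 to 0.23, adjusted p 0.977). KDM1A had the largest difference of the 9, 0.14 (-0.13 to 0.41, adjusted p 0.949). None of the 9 passed in limma, where 0.00687% of all genes passed, 1 gene, and exact two-sided permutation tests gave p between 0.3 and 1, with 0.1 as the smallest that 3 arrays against 2 allow.

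A suffix in the array names set 4 arrays apart, all 3 of shRNA B and replicate 3 of shRNA A, and no control array carried it. What the suffix stands for is not given in the sources used here. Within the 7 arrays without it, 2 of shRNA A against 5 controls, the difference was -0.30 for HMG20B and -0.26 for RBBP4. With the suffix as a term over all arrays, shRNA B minus control was -0.48 (SE 0.116) for HMG20B and -0.21 (SE 0.136) for RBBP4. That fit takes the suffix from 1 shRNA A array against the other two.

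HMG20B lies on chromosome 19 of GRCh38.p14 between positions 3572944 and 3579083 on the plus strand. It had 24 probe sets, of which 12 were used, 2 had no estimate on any array and 10 were below the floor. Of the 12, 10 were lower in the knockdown arrays, and for 3 of them every knockdown array lay below every control, where 1.65% of all probe sets used did so.

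Probe set 3817060 was 8.14, 8.12 and 8.27 in the shRNA B arrays, 8.29, 8.54 and 8.50 in the shRNA A arrays, 8.70, 8.83 and 8.65 in the GFP shRNA arrays and 8.94 and 8.80 in the empty vector arrays, a knockdown minus control difference of -0.47. It was the lowest of the 12 differences. The shRNA B arrays lay below the shRNA A arrays in this probe set, while some other HMG20B probe sets went the other way. Probe set 3817060 also helped to set the HMG20B gene value on 6 arrays. Its order of the shRNAs is therefore no separate evidence for that of the gene value. Probe set 3817053 was 8.63, 8.55 and 8.63 in the shRNA B arrays, 8.58, 8.53 and 8.61 in the shRNA A arrays, 9.13, 8.78 and 8.86 in the GFP shRNA arrays and 9.19 and 8.91 in the empty vector arrays, a difference of -0.39. Probe set 3817064 was 8.30, 8.22 and 8.51 in the shRNA B arrays, 8.63, 8.33 and 8.41 in the shRNA A arrays, 8.76, 8.81 and 8.68 in the GFP shRNA arrays and 8.73 and 8.71 in the empty vector arrays, a difference of -0.34. In these 3 probe sets the groups did not overlap.

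In order of probe set number, the first 4 used (3817042, 3817046, 3817047 and 3817048) differed by 0.18, -0.08, 0.04 and -0.06, and their groups overlapped. The next 5 (3817052, 3817053, 3817055, 3817057 and 3817060) differed by -0.19, -0.39, -0.21, -0.20 and -0.47. Of the last 3, probe sets 3817063 and 3817068 lay between 7.98 and 8.06 in both groups, near the array median, with a difference of -0.04 each. This grouping by number was made after the values were seen, and the probe table gives no positions within the gene.

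**Figure D2:**
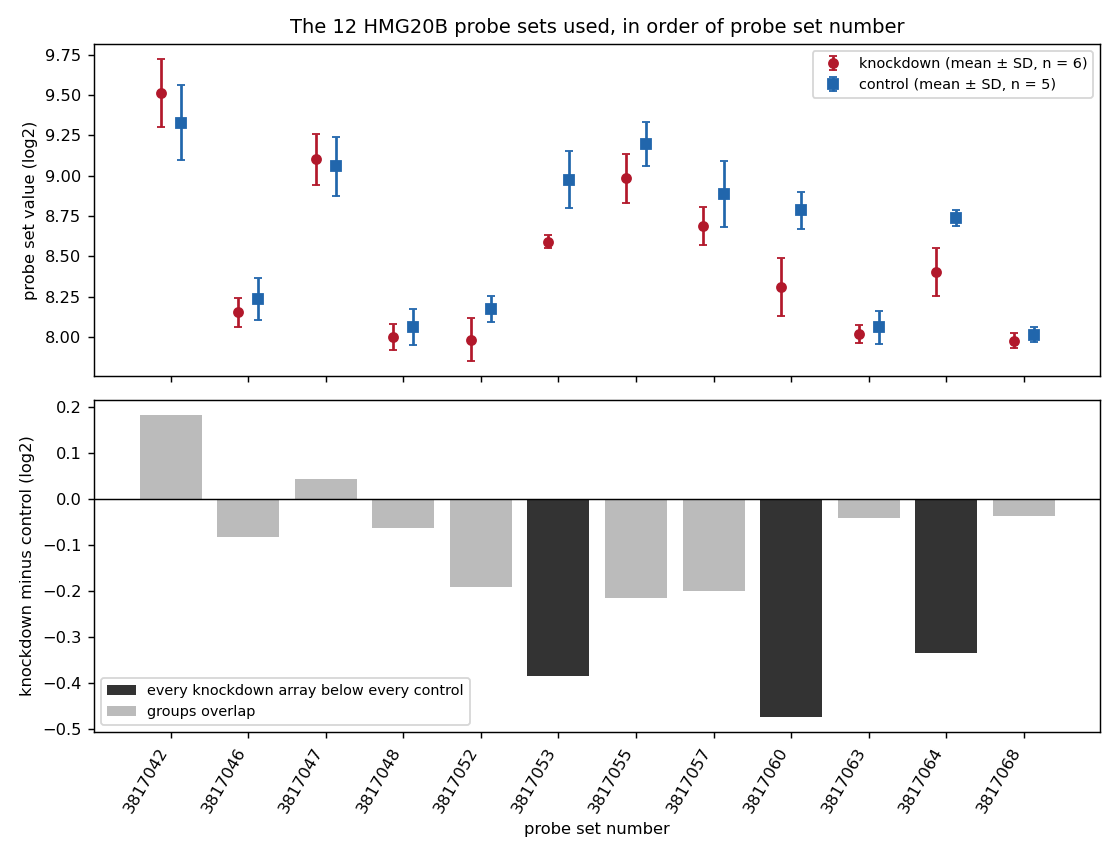
Upper panel, mean ± SD (log2) of the 12 HMG20B probe sets used in the knockdown arrays (n = 6) and the control arrays (n = 5), in order of probe set number; lower panel, the knockdown minus control difference, dark where every knockdown array lay below every control. The 3 dark bars are -0.39, -0.47 and -0.34, and the first probe set is higher in the knockdown arrays by 0.18.

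The HMG20B gene value differed by more than 10 of its 12 probe sets did. The median of the 12 differences was -0.14 and their mean -0.15, against -0.38 for the gene value. With an even number of probe sets the median of an array is the mean of the middle pair, and probe set 3817064 was in that pair on 9 of the 11 arrays and 3817060 on 6. Over all genes the median gene difference was -0.02 and the median of the probe sets' median differences -0.01, while over the 27 genes called lower these were -0.31 and -0.20.

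With each probe set centred on its own mean before the median was taken, HMG20B differed by -0.17 (SE 0.036), and without the floor on dim probe sets by -0.14. The centred values were -0.14 to -0.01 in the knockdown arrays and -0.01 to 0.18 in the control arrays, so that the groups overlapped by 1 array. Its difference was negative under all 23 settings tried, and its size varied.

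RBBP4 lies on chromosome 1 of GRCh38.p14 between positions 32651208 and 32686211 on the plus strand. Its 27 probe sets fell into 4 separate runs of probe set numbers, of which 24 probe sets were used. RefSeq lists 7 RBBP4 pseudogenes, on chromosomes 3, 5, 6 and 14. The probe table gives no positions. By number, the first run follows the probe sets of HDAC1 (2328869 to 2328900). HDAC1 lies before RBBP4 on the same chromosome and strand (32292083 to 32333626). The other runs lie far from these numbers, and whether they match pseudogenes was not tested. The signals of near-identical copies cannot be told apart here.

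The first run, from 2328991 to 2329023, had 13 probe sets used, of which 8 were lower in the knockdown arrays, with a median difference of -0.02. The second, 2685379 to 2685383, had 3 used, all lower, with a median of -0.13. The next, 2849593 to 2849599, had 5 used, 2 of them lower, with a median of 0.09. The last, 2958818 to 2958992, had 3 used, all lower, with a median of -0.29.

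In 4 of the 24 RBBP4 probe sets used, from 3 runs, every knockdown array lay below every control. Over all probe sets used, 1.65% did so. Probe set 2329005 of the first run was 9.78, 9.95 and 9.77 in the shRNA B arrays, 9.85, 9.76 and 9.71 in the shRNA A arrays, 10.14, 10.07 and 10.05 in the GFP shRNA arrays and 10.11 and 10.04 in the empty vector arrays, a difference of -0.28. Probe set 2958818 of the last run averaged 9.83 ± 0.081 in the knockdown arrays and 10.16 ± 0.155 in the control arrays, a difference of -0.34. The other two, 2329000 and 2685383, differed by -0.22 and -0.36.

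The gene value of RBBP4 rested on few probe sets. Probe set 2329005 was in the middle pair on 7 of the 11 arrays, 2958818 on 6, 2958991 on 4 and 2685383 on 3. Both 2329005 and 2958818 are among the 4 probe sets without overlap. The median of the 24 differences was -0.07, and the gene value of the first run alone differed by 0.02 (SE 0.067), against -0.29 with all runs.

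**Figure D3:**
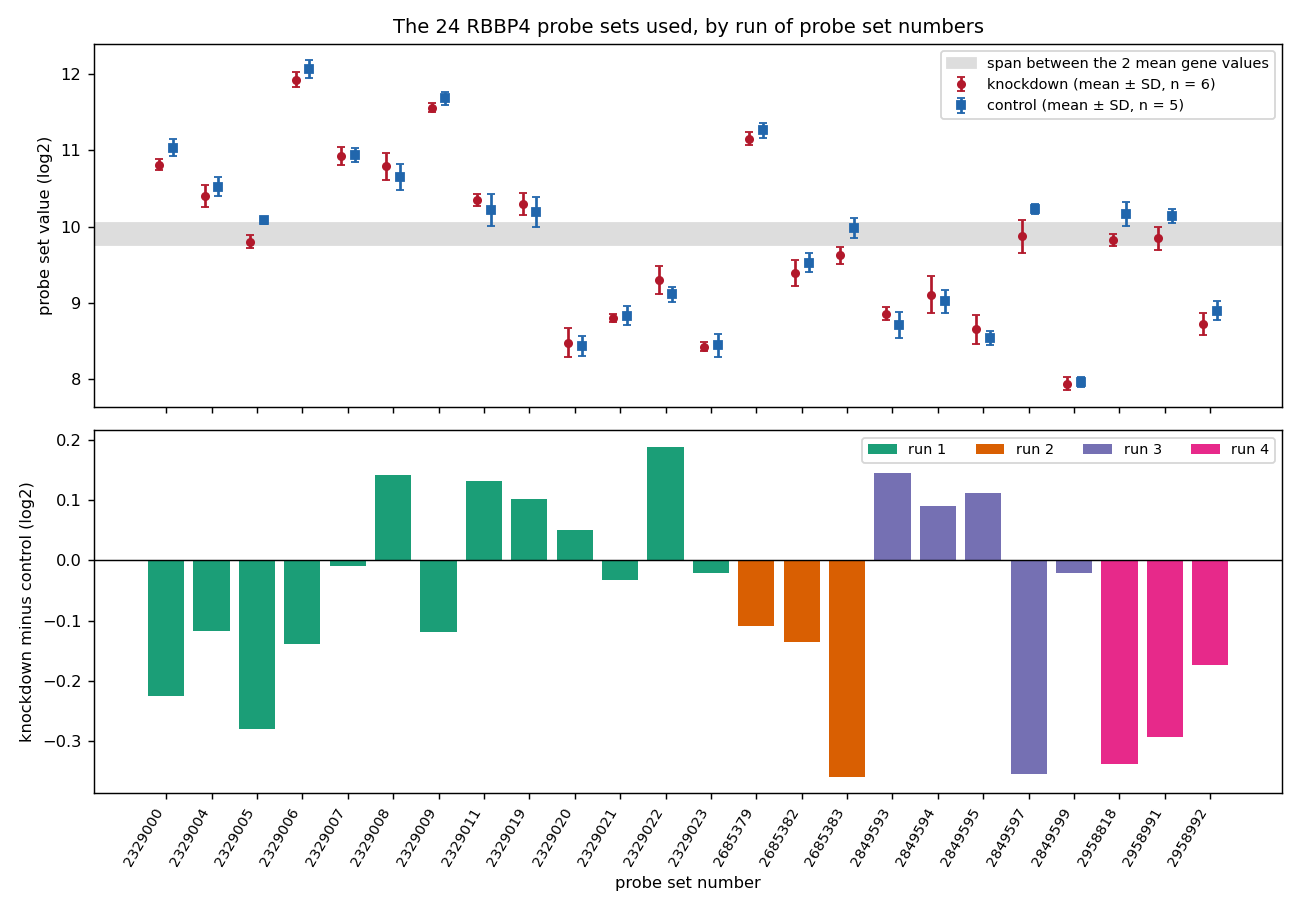
Upper panel, mean ± SD (log2) of the 24 RBBP4 probe sets used in the knockdown arrays (n = 6) and the control arrays (n = 5), with the span between the average gene values of the groups (9.76 and 10.05) in grey; lower panel, the knockdown minus control difference, coloured by run of probe set numbers. Bars of the second and last runs all lie below 0, and those of the other runs lie on both sides.

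Among the other genes of the complex, KDM1A, HDAC1 and HDAC2 each had 1 probe set with every knockdown array below every control. Over all probe sets used, 1.65% did so. KDM1A had 26 probe sets, all used, of which 24 were lower in the knockdown arrays, with a median difference of -0.11. For 1 of them, 2325039, every knockdown array lay below every control, at 9.54 ± 0.113 in the knockdown arrays and 9.75 ± 0.046 in the control arrays (SD, n = 6 and 5). Over all probe sets used, 61.5% were lower. The KDM1A probe sets share 1 gene and the same arrays, so they are not separate observations of the depletion.

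HDAC1 had 13 of 18 probe sets lower, with a median difference of -0.04, and 1 without overlap. This was 2328882, at 9.94 ± 0.090 in the knockdown arrays and 10.27 ± 0.072 in the control arrays, a difference of -0.32. HDAC2 had 16 of 23 lower, with a median of -0.05, and 1 without overlap, 2970567, at 9.66 ± 0.122 in the knockdown arrays and 9.95 ± 0.086 in the control arrays.

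RCOR1 had 10 of 18 probe sets lower, RCOR2 2 of 4, RCOR3 14 of 26 and PHF21A 19 of 27, with median differences between -0.04 and 0.04. In none of these 75 probe sets did the groups separate. RefSeq lists 2 pseudogenes of HDAC1 and 1 of RCOR2, and the probe table does not say which copies their probe sets match.

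Single probe sets were tested between the shRNAs and between the controls. Among the 178 of the complex, limma called none in shRNA B minus shRNA A, with 4 (2.25%) at an unadjusted p under 0.05, and it called 0% of all 222032, with 10442 at an unadjusted p under 0.05. The smallest unadjusted limma p was 0.0172 for HMG20B 3817060, lower with shRNA B by 0.27 on the log2 scale (difference -0.27, adjusted p 1.00). In GFP shRNA minus empty vector limma called none of the 178, with 9 (5.06%) at an unadjusted p under 0.05, and it called 0.00045% of all probe sets used.

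Exon usage was tested with the splicing index, which subtracts an array's gene value from each probe set's value on it. In shRNA B minus shRNA A limma called none of the 178, with 8 (4.49%) at an unadjusted p under 0.05, and 0% of all probe sets, with 12250 at an unadjusted p under 0.05. In GFP shRNA minus empty vector it also called none of the 178, with 8 (4.49%) unadjusted, and 0% of all, with 9973 unadjusted. For HMG20B and RBBP4 the index depends on the few probe sets that set the gene value.

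**Figure D4:**
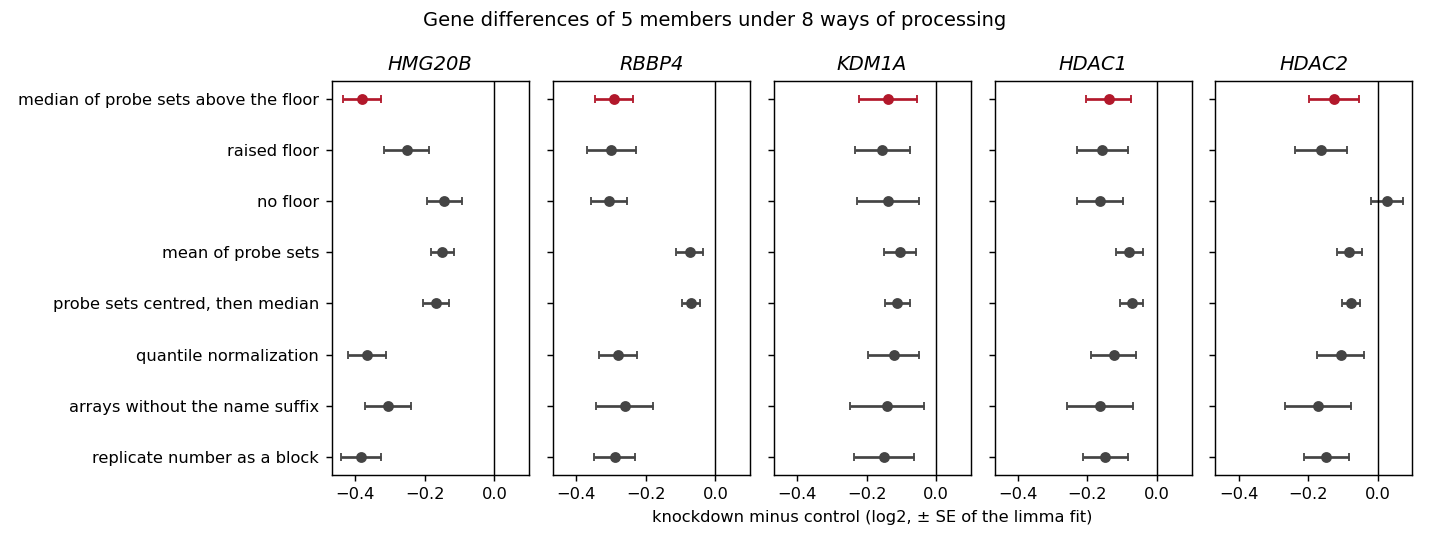
Knockdown minus control difference of the gene value (log2, horizontal axis) with its SE from limma for 5 genes under 8 ways of processing (rows), the reported one in red. HMG20B lies between -0.38 and -0.14, RBBP4 at -0.07 with the mean or the centred median and at -0.31 to -0.26 otherwise, and HDAC2 at 0.03 without a floor.

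The genes whose values followed HMG20B most closely over the 11 arrays were RPLP0, FCSK, EEF1G, CD55 and EMD, selected on Pearson correlation among all genes. RPLP0, a protein of the ribosomal stalk, had a correlation of 0.952 over the arrays and 0.663 after the mean of each construct was subtracted. EEF1G, a subunit of translation elongation factor 1, had 0.947 and 0.833 by these measures. FCSK, fucose kinase, had 0.951 and 0.519, and CD55, which protects cells from complement, had 0.942 and 0.672. EMD, the nuclear envelope protein emerin, had 0.939 and 0.270.

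RBBP4 had a correlation with HMG20B of 0.847 over the arrays and of -0.44 within constructs. Both genes were chosen for lower values after depletion, so the correlation over the arrays follows in part from that choice. The correlation of HDAC1 was 0.719, of HDAC2 0.599 and of KDM1A 0.519, and that of the other 4 members lay between 0.022 and 0.371. These correlations are descriptions over 11 arrays that share 4 constructs. The HMG20B value had a correlation of 0.638 with the mean of the 3000 genes with the highest values, and 0.369 within constructs; the part of that mean in the HMG20B difference was not tested.

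Next to HMG20B on chromosome 19, MFSD12 and FZR1 were measured among the 3 nearest protein-coding genes on each side. MFSD12, 15358 bases away, averaged 8.51 ± 0.062 in the knockdown arrays and 8.63 ± 0.055 in the control arrays, a difference of -0.11 (SE 0.045, adjusted p of limma 0.239). Its groups did not overlap, as for 2.03% of all genes in that direction. FZR1, an activator of the anaphase-promoting complex, averaged 8.36 ± 0.051 and 8.56 ± 0.100 in knockdown and control arrays, a difference of -0.20 (SE 0.049, adjusted p 0.0816). TEKTIP1, GIPC3, TBXA2R and CACTIN were not among the genes measured.

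Genes of related complexes were followed from lists made for this purpose, and in each list limma called 0 genes higher and 0 lower between knockdown and control. Of 15 measured partners that bind the LSD1-CoREST complex or bring it to DNA, 12 were lower, with a median difference of -0.04. INSM1, a zinc finger factor of neuroendocrine cells, averaged 9.11 ± 0.090 in the knockdown arrays and 8.75 ± 0.271 in the control arrays (difference 0.36, adjusted p 0.0986). CTBP2, a corepressor, differed by -0.16, and REST, named here after its value was seen, by -0.12. None of the 15 separated the groups.

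Of the 11 other NuRD subunits, 10 were lower, with a median of -0.07. MTA1 averaged 9.30 ± 0.113 in the knockdown arrays and 9.51 ± 0.100 in the control arrays (difference -0.21, adjusted p 0.160), and CDK2AP1 differed by -0.20. Of 14 genes of other complexes that hold RBBP4, 11 were lower, with a median of -0.03. CHAF1A, of chromatin assembly factor 1, differed by -0.17 with no overlap between the groups, and LIN37, of the DREAM complex, by -0.16. Of all genes, 2.03% had every knockdown array below every control.

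Of 11 measured SIN3 complex genes 9 were lower, with a median of -0.02, and SUDS3 differed by -0.08 and BRMS1 by -0.07. Among the other histone deacetylases 6 of 9 were lower, with a median of -0.06, and HDAC3 differed by -0.19 and HDAC7, whose groups did not overlap, by -0.12. Among the other lysine demethylases 13 of 18 were lower, with a median of -0.03, and KDM2B differed by -0.15, with no overlap between the groups, and KDM5C by -0.12. Beside these counts, 67.1% of all genes were lower, with a median of -0.02, and 2.03% had every knockdown array below every control.

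Neuronal genes that REST and its corepressors are known to hold down had a median difference of -0.0014 over the 17 of 24 measured, of which 9 were lower and none was called by limma. STMN3 differed by -0.15, and SYP by -0.07 with no overlap between the groups, as for 2.03% of all genes in that direction. Their averages lay between 7.93 and 8.14 in the knockdown arrays and between 7.92 and 8.29 in the control arrays, near the array median, where a change may not be seen.

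**Figure D5:**
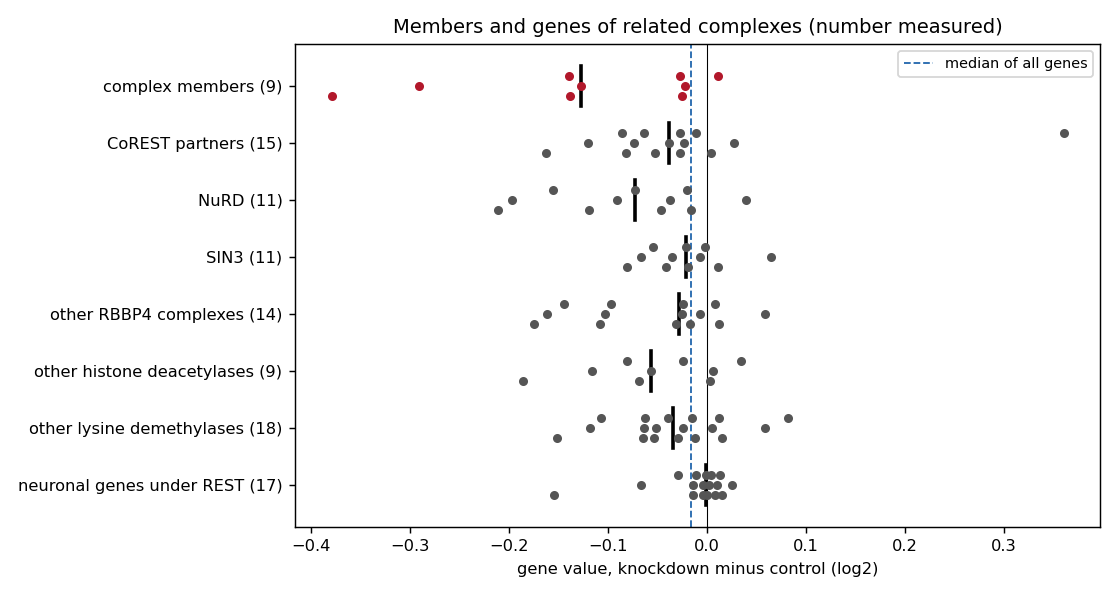
Knockdown minus control difference of the gene value (log2, horizontal axis) for the 9 subunit genes (red) and the measured genes of 7 related lists (grey), with the median of each list as a bar and the median of all genes as a dashed line. HMG20B and RBBP4 are the points at -0.38 and -0.29, and INSM1 is the single point at 0.36.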

How the data were processed

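T-REx-293 cells with an empty vector, a GFP shRNA or 1 of 2 Tat-SF1 shRNAs were measured on Affymetrix Human Exon 1.0 ST arrays. Per the labels, 12 arrays were planned and 1 empty vector array was dropped for its quality, leaving 11. The deposited table holds log2 values per probe set, as its values show. The processing software, normalization and build were not given in the sources used here. Each array lacked an estimate for 13190 to 15431 probe sets.

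A probe set was used with 1 gene symbol in the table of probe annotations, an estimate on all arrays and an average at or above the table's median of 7.91. Symbols were updated through RefSeq, and a gene needed at least 4 probe sets. The gene value was their median. Differences were fitted with limma 3.58.1 (with a trend, in R 4.3.3 with version 1.17.8 of the data.table package) and adjusted by Benjamini-Hochberg over all genes or probe sets. The pooled contrast had 2 levels, the shRNAs against each other 3 and the controls 4, always over 11 arrays. A threshold of 0.05 on adjusted p was used.

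The genes, lists and alternatives were chosen with earlier results of these data known. Apart from the 9 genes and their probe sets, the text names the 5 genes closest to HMG20B by correlation, its neighbours and up to 2 genes per list with the largest difference. Runs of probe set numbers were split at gaps over 1000. Replicate numbers were not treated as pairs in the main fits. Deviations from construct means correlated at -0.15 to 0.27 (median 0.04) over 15 same-numbered pairs of arrays. Over 30 pairs with different numbers they correlated at -0.27 to 0.22 (median -0.02). Ranges this wide cannot show whether the numbers pair the samples. The number of arrays limits the precision, and p-values cover the spread between these arrays.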

Additional observations from a re-analysis of the deposited data

Results flagged for a closer look

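The 9 genes' values were examined for an array far from the rest of its group, in 18 groups of 5 or 6 arrays, and 1 was found. KDM1A had 9.3986 on replicate 2 of the empty vector, while the nearest of the other control arrays had 9.7039, a gap of 0.874 of the group's range. The limit used is one that chance passes in about 1 in 20 groups. Without that array the KDM1A difference between knockdown and control was -0.20, against -0.14 with it.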

How the results depend on the processing

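The HMG20B knockdown minus control difference stayed negative under all alternatives run, between -0.98 (signal above the array median) and -0.14. It was no longer past the limma threshold without the floor on dim probe sets (-0.14) or without the arrays at both ends of the first principal component (-0.35). The same held with the suffix of the array names blocked or without the suffixed arrays (-0.30 each). Both of these compare shRNA A replicates 1 and 2 with the controls, since only knockdown arrays carry the suffix. It was also not past the threshold with probe sets centred before the median (-0.17). The last alternative and the longest run of RBBP4 were chosen after seeing the data. Leaving out 1 array at a time gave -0.40 to -0.35. RBBP4 kept its direction but not its call in 19 of 24 alternatives, 10 of which left out 1 array, and lost both with the longest run alone (0.025). The fit with the replicate block gave -0.38 for HMG20B, which kept its call, and -0.29 for RBBP4, which did not. HDAC2 stood at 0.03 without the floor. For RCOR2 a raised floor left no probe sets and so no value. The causes were not tested.

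Of all genes, limma called 32 between knockdown and control as reported, 19 without the floor, 253 with a raised floor, 134 with the mean, 10 with the replicate block, 89 without the variance trend, 92 after centring, and 0 with the suffix block, without the suffixed arrays and without the arrays at both ends. Leaving out 1 array gave 2 to 47. For shRNA A it called 1 as reported, then 9 without the floor, 47 with a raised floor, 14 with the mean, 10 without the trend, 3 on the signal scale, 48 after centring, and 0 after quantile normalization and with either treatment of the suffix, where leaving out 1 array gave 0 to 2. For shRNA B it called 10, then 1 without the floor, 87 with a raised floor, 4 with the replicate block, 19 on the signal scale, 1 after centring, 0 with the suffix block and 0 without the end arrays, where leaving out 1 array gave 0 to 9. Between the shRNAs it called 0 genes, 1 on the signal scale and 0 to 1 with 1 array left out. Between the controls it called 1 gene, 0 under the alternatives that moved the count, and 0 to 2 with 1 array left out.

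Single probe sets called between the shRNAs numbered 0, then 1 without the floor, 1 with the suffix block and 0 to 1 with 1 array left out. Between the controls they numbered 1, then 3 without the floor and 1 to 6 with 1 array left out. For exon usage the counts were 0, then 1 without the floor and 3 with the suffix block between the shRNAs, and 0, then 2 without the floor and 0 to 1 with 1 array left out between the controls. No probe set of the 9 genes was called in these contrasts in any of 16 settings. Unadjusted limma p-values under 0.05 with 1 array left out numbered 1730 to 2655 genes between knockdown and control and 517 to 762 between the shRNAs.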
